A study of Mus musculus with 18 samples.

Results

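A group of 6 genes that mark hippocampal neurons were followed through libraries of medial entorhinal cortex (MEC), a cortical area that borders the hippocampus. They were chosen by name as rows of the deposited expression table, and all 6 were found among its 27781 named genes. Prox1, C1ql2, and Dsp stand for granule neurons of the dentate gyrus, and Fibcd1, Fn1, and Iyd for CA1 and the subiculum. The question was whether dentate genes and CA1 or subicular genes rise in the same libraries.

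The libraries came from C57Bl/6 mice that had performed the Split Maze (SM) task on a virtual track, and no genotype or drug set the groups apart. Each of the 18 libraries was made from a single mouse. The age groups were young, mature (middle-aged, named MA), and aged, of 6 mice each, and both sexes gave 3 mice per group. MEC was dissected from a frozen hemisphere, and nuclei positive for NeuN, a protein of neuronal nuclei, were sorted from it. By the study's methods, nuclei of the lateral entorhinal cortex and parasubiculum could be among them. The supplier was Charles River for young mice and Jackson for all others, so age and supplier cannot be told apart in comparisons with young mice. Sex and recording cohort coincide in young and aged mice.

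The dentate gyrus, CA3, CA1, and subiculum form a chain of areas that receives input from entorhinal cortex and returns output to it, and each area has excitatory neurons with their own genes. Prox1 is a transcription factor that specifies dentate granule neurons and is also made by interneurons of the caudal ganglionic eminence (CGE). C1ql2 is a secreted protein of the complement C1q family that granule neurons place at their mossy fibre synapses. Dsp encodes desmoplakin, a protein that anchors intermediate filaments at desmosomes. Fibcd1 is a membrane receptor that binds acetylated groups such as those of chitin. Fn1 encodes fibronectin, an extracellular matrix protein that vascular cells make as well. Iyd is a deiodinase that recovers iodide from iodotyrosines.

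Values are gene abundances that the authors estimated with Kallisto. They are scaled per library: over the genes above 0 throughout, the median ratio to the geometric mean of a gene was 1.013 in each of the 18 libraries, as DESeq2 size factors would leave it. They are not per length, so levels were compared between libraries and not between genes. Most are not multiples of a common step: of the values under 60, between 9.63% and 23.5% per library were whole multiples of the commonest low value of that library, to within 0.02 of a multiple. Reads were therefore not recovered, and no sequencing depth is given. Between 19909 and 24101 genes per library were above 0. Xist lay between 3724 and 17264 in females and at most at 41.5 in males, and Ddx3y between 1521 and 4775 in males and at most at 42.4 in females, as labelled. The 5 genes listed as pan-neuronal were Rbfox3, Snap25, Syt1, Map2, and Slc17a7, the last a gene of glutamatergic neurons. They summed to at least 104504 in every library, and the 10 genes of cortical and entorhinal excitatory neurons to between 14156 and 29024. In bulk samples, fewer cells of a type and less RNA per cell cannot be told apart.

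In GENCODE annotation of GRCm39, Prox1 spans chr1:189850232-189904637 on the minus strand, C1ql2 spans chr1:120268300-120270903 on the plus strand, and Dsp spans chr13:38335230-38382553 on the plus strand. Fibcd1 lies at chr2:31702948-31736233 on the minus strand, Fn1 at chr1:71624673-71692419 on the minus strand, and Iyd at chr10:3490233-3505854 on the plus strand. All 6 are protein-coding. Whether strand was used in the estimates is not given in the sources used here, so values of Prox1, Fn1, and Dsp are uncertain where other genes overlap them. Prox1os, an antisense transcript, shares 3794 bases with Prox1 and ranged from 0.57 to 422.1, and its r with Prox1 was 0.67. Apol7d, annotated as a long noncoding RNA, shares 2292 bases with Fn1 and ranged from 0.41 to 72.8, with an r of 0.38. Gm10129, on the opposite strand, overlaps 539 bases of Dsp, Gm69899, on the opposite strand, 1450 bases of Prox1, and Gm70549, on the same strand, 563 bases of Prox1. These 3 genes were not analysed here, and strand would not set Gm70549 apart from Prox1.

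Upstream sequences are shown for the 2 pairs of tested genes that followed each other most closely, Prox1 with Dsp and C1ql2 with Fibcd1. They are the 250 bases before the annotated start from RefSeq on GRCm38.p6, 5′ to 3′ on the strand of the gene, for 4 of the 5 genes that the RefSeq table holds. Prox1 has 2 listed starts, and the one farther upstream is printed. Capitals mark 5 searched motifs on either strand: the GC box GGGCGG, the TATA box TATAAA, the CCAAT box CCAAT, the cAMP element TGACGTCA, and the E-box as CAGATG or CAGCTG.
Prox1, chr1:190170828-190171077, minus strand: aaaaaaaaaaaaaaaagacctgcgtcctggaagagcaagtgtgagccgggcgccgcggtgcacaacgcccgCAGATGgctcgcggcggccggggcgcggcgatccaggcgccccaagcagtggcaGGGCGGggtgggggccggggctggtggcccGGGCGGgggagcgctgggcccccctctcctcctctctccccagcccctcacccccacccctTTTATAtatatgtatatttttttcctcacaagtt
Dsp, chr13:38151044-38151293, plus strand: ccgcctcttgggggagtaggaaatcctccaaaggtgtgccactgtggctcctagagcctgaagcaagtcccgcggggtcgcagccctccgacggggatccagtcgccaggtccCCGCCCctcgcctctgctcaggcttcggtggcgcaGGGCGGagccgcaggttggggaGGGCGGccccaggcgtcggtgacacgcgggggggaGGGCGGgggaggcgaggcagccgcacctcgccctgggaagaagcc
C1ql2, chr1:120340332-120340581, plus strand: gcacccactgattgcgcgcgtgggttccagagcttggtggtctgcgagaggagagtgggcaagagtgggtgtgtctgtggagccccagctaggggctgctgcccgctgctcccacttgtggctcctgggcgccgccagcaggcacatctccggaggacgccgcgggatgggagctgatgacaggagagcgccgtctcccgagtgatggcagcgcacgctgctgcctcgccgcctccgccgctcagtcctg
Fibcd1, chr2:31846006-31846255, minus strand: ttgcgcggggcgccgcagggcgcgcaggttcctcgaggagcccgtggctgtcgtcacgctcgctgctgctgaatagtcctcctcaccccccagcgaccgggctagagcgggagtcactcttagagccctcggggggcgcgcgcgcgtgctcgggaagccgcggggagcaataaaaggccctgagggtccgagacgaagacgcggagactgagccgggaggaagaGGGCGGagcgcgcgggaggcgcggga

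The GC box occurred 4 times before Dsp, 2 times before Prox1, and 1 time before Fibcd1, and it is found in 32.7% of the 32851 upstream windows of that length in the table. Prox1 also held 1 TATA box, found in 12.4% of windows, and 1 E-box, found in 25.5%. C1ql2 held none of the 5 motifs, which says only that these letters are not in this window. Neither the CCAAT box (33.8% of windows) nor the cAMP element (1.55%) was found in any of the 4 sequences. No searched motif was therefore shared by C1ql2 and Fibcd1, while Prox1 and Dsp shared the GC box, and these matches are descriptions of the letters alone.

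**Figure D1:**
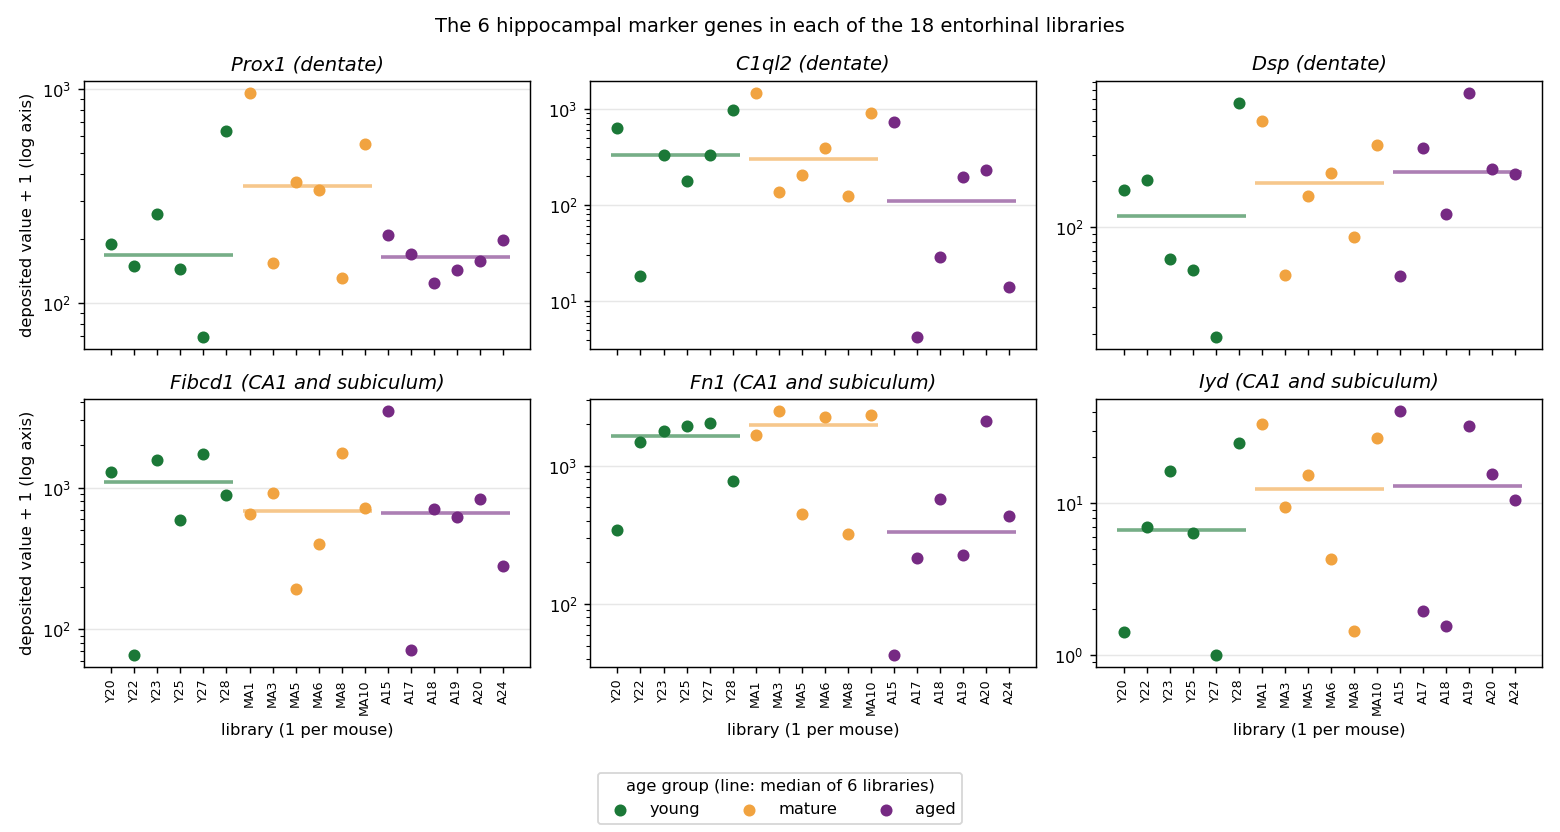
Deposited value plus 1 on a log axis for each of the 6 genes in each of the 18 libraries, with a point per mouse colored by age group and a line at the median of each group. The young mouse Y28 and the mature mice MA1 and MA10 hold the 3 highest values of both Prox1 and C1ql2, while A15, MA8, and Y27 hold those of Fibcd1.

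The 6 genes varied widely among libraries, and their highest libraries were not the same. Prox1 was 68.6, 167.6, and 636.9 (lowest, median, highest) in the 6 young mice, 130.6, 351.4, and 954.0 in the 6 mature mice, and 123.1, 162.5, and 205.9 in the 6 aged mice. The mature mouse MA1, the young mouse Y28, and the mature mouse MA10 were highest, in this order, at 954.0, 636.9, and 552, and no aged mouse was above 205.9. The age groups overlapped.

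C1ql2 was 17.1, 329.3, and 961.7 in young mice, 123.4, 298.0, and 1445 in mature mice, and 3.28, 109.9, and 726.7 in aged mice. The same 3 libraries as for Prox1 led, with 1445 in MA1, 961.7 in Y28, and 891.2 in MA10. The lowest 4 were 3 aged mice and Y22, so C1ql2 spanned a ratio of 441 between its highest and lowest library. These 4 libraries had 3.28 to 27.5 for C1ql2. None of them was the lowest library for Prox1, which lay between 123.1 and 197 in them, against 68.6 in its lowest library.

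Dsp was 18.1, 118.2, and 650.2 in young mice, 47.3, 192.9, and 495.7 in mature mice, and 46.6, 230.6, and 758.9 in aged mice. Its highest library was the aged mouse A19, followed by Y28 and MA1. A19 ranked 15 of 18 for Prox1 and 11 of 18 for C1ql2. All 3 dentate genes were thus high in Y28 and MA1, and Dsp alone was high in A19.

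Fibcd1 was 64.9, 1091, and 1718 in young mice, 191.5, 687.0, and 1759 in mature mice, and 70.6, 663.4, and 3455 in aged mice. It was highest in the aged mouse A15 and lowest in Y22 and A17. Y22 and A17 were also among the 3 lowest libraries for C1ql2.

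Fn1 was 340.7, 1636, and 2049 in young mice, 319.7, 1961, and 2478 in mature mice, and 41.7, 329.8, and 2097 in aged mice. It was highest in the mature mice MA3, MA10, and MA6, and lowest in A15, the library that led for Fibcd1. Of the aged mice only A20, at 2097, lay above 571.8.

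Iyd was at 0, 5.63, and 23.996 in young mice, 0.43, 11.4, and 32.2 in mature mice, and 0.56, 12.03, and 39.1 in aged mice. Its mean of 12.9 fell under the limit of 25 set for tests across genes, which the other 5 genes passed. Iyd was highest in A15, MA1, and A19 and listed at 0 in Y27.

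The SD of the log2 level, with age group and sex removed, was 2.24 for C1ql2, 1.66 for Fibcd1, 1.54 for Dsp, 1.40 for Fn1, and 0.91 for Prox1, against a median of 0.52 over 17957 genes. Of these genes, 98.5% had a smaller SD than C1ql2, 91.5% than Fibcd1, 89.1% than Dsp, 86.4% than Fn1, and 73.7% than Prox1.

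**Figure D2:**
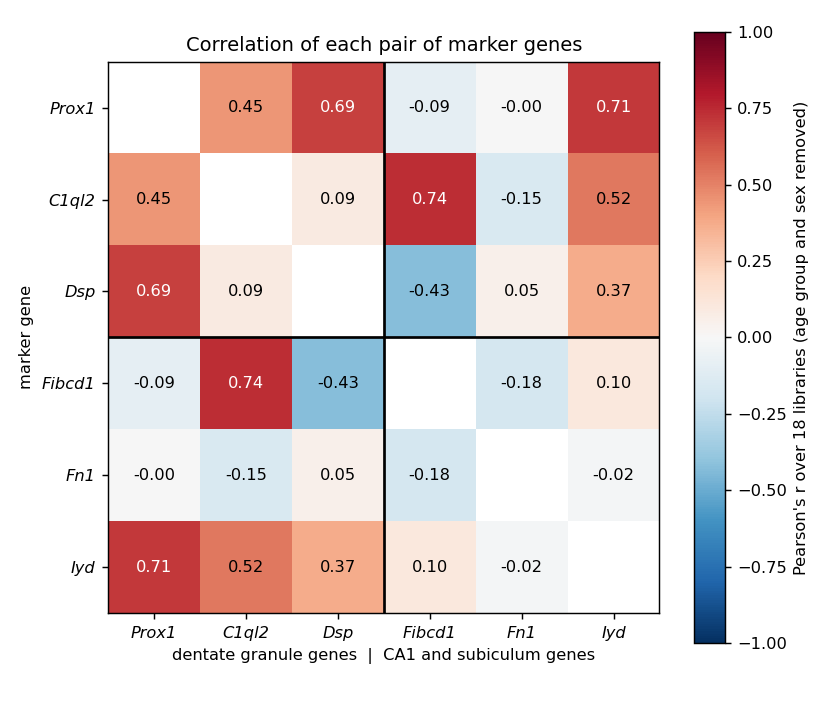
Pearson's r between the log2 levels of each pair of the 6 genes over 18 libraries, with age group and sex removed, from blue (below 0) to red (above 0), and black lines between dentate genes and CA1 and subiculum genes. The highest values are those of C1ql2 with Fibcd1 (0.74), Prox1 with Iyd (0.71), and Prox1 with Dsp (0.69), and the row of Fn1 lies between -0.18 and 0.05.

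Dentate genes and CA1 or subicular genes did not follow each other as 2 sets, but single pairs across the areas had an r above 0.5, by the areas the genes were chosen for. Unless said otherwise, correlations are over 18 libraries on log2(value + 1) with age group and sex removed, and 15 pairs were computed. Of the 3 dentate pairs, r ranged from 0.09 to 0.69. Of the 3 pairs within CA1 and subiculum, r ranged from -0.18 to 0.10. Of the 9 pairs across the areas, 5 had an r above 0, and their r ranged from -0.43 to 0.74 with a median of 0.05. Of the 15 pairs, 4 had an unadjusted permutation p under 0.05, and 3 of these 4 joined a dentate gene with a CA1 or subicular gene. This count depends on where Iyd is placed: 2 of the 3 hold Iyd, whose r with Fibcd1 and Fn1 was 0.10 and -0.02. Without Iyd, 1 of 6 pairs across the areas had such a p, C1ql2 with Fibcd1. The share of all genes with an unadjusted p under 0.05 in limma varied by member, from 549 of 17984 genes with Iyd, 1098 of 17983 with Prox1, 1313 with Fn1, and 1493 with C1ql2 to 3514 with Dsp and 4128 with Fibcd1.

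C1ql2 and Fibcd1 had the highest r of the 15 pairs, at 0.74 (permutation p = 0.000290, two-sided) and a rho of 0.51 (permutation p = 0.0351). When the 2 libraries most distant from the median of C1ql2, Y22 and A17, were left out, r was 0.49, and it ranged from 0.64 to 0.83 with any 1 library left out. They shared none of their 3 highest libraries and 2 of their 3 lowest, Y22 and A17. As measured, without removal of age and sex, r was 0.68 and rho was 0.45 (permutation p = 0.0621). Among 17956 other genes, 51 had a higher r with C1ql2 than Fibcd1 had, and 227 had a higher r with Fibcd1 than C1ql2 had. In limma, the log2 level of C1ql2 rose by 0.9997 per unit of log2 Fibcd1 (standard error 0.22), with an adjusted p of 0.0501 that missed the threshold of 0.05. It fell under the threshold without Y20 (0.0400), Y28 (0.0419), MA3 (0.0349), MA5 (0.0371), MA8 (0.0242), or A19 (0.0360), and rose to 0.265 without A15, 0.215 without A17, and 0.121 without Y22. At the threshold, 89 of 17983 genes, or 0.495%, were called with Fibcd1 in either direction, and 20, or 0.111%, with the number of genes above 0 as a term.

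Prox1 and Iyd had an r of 0.71 (permutation p = 0.000750) and a rho of 0.73 (permutation p = 0.000970). It fell to 0.63 when Y28 and MA8, the 2 libraries most distant from the median of Prox1, were left out, and it lay between 0.64 and 0.74 with any 1 library left out. Iyd also followed C1ql2, with an r of 0.52 (permutation p = 0.0260) and a rho of 0.61 (permutation p = 0.00817), and r was 0.59 without Y22 and A17. With Fibcd1 and Fn1, the genes with which it was grouped, the r of Iyd was 0.10 (95% interval -0.43 to 0.58) and -0.02 (-0.53 to 0.50). In limma, 0 of 17984 genes were called with Iyd, while 549 had an unadjusted p under 0.05, and the adjusted p of Prox1 and of C1ql2 was 0.999. Values of Iyd near 0 rest on little signal, and no depth is known for them.

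Prox1 and Dsp had an r of 0.69 (permutation p = 0.00152) and a rho of 0.53 (permutation p = 0.0248), and r was 0.57 without Y28 and MA8. This was the only one of the 25 ordered pairs called in limma. The log2 level of Prox1 rose by 0.41 per unit of log2 Dsp (standard error 0.11, adjusted p = 0.0222 in limma). With Dsp, however, 2041 of 17983 genes, or 11.3%, were called in either direction. Among 17956 other genes, 1737 had a higher r with Dsp than Prox1 had, and 37 had a higher r with Prox1 than Dsp had. The opposite order, Dsp on Prox1, had an adjusted p of 0.750, with 0 genes called and 1098 at an unadjusted p under 0.05. The call was lost without Y27 (adjusted p = 0.101), Y28 (0.190), MA1 (0.0588), or MA3 (0.0569). It was also lost with the number of genes above 0 as a term (adjusted p = 0.978), where r was 0.62, by ranks (0.213), and after quantile normalization (0.153).

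Dsp followed the number of genes above 0 in a library, with an r of 0.82 (permutation p = 1.0e-05, the smallest that 100000 permutations can give) and a rho of 0.75 (permutation p = 0.000520). With the 2 libraries farthest from the median of that number left out, Y27 and A15, the value was 0.69. For Fibcd1 the r was -0.58 (permutation p = 0.0118), for Prox1 0.45 (p = 0.0629), for Iyd 0.26, for C1ql2 -0.23, and for Fn1 0.06, 6 relations in all. With that number as a term, 0 genes were called with Dsp in limma, and 767 had an unadjusted p under 0.05. The r of Dsp and Fibcd1, -0.43 (permutation p = 0.0766) and a rho of -0.48 (permutation p = 0.0476), became 0.09 with this term, and the r of C1ql2 and Dsp went from 0.09 to 0.50. The r of C1ql2 and Fibcd1 was 0.76 and that of Prox1 and Iyd 0.68 with the term.

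Prox1 and C1ql2 had their 3 highest libraries in common, yet an r of 0.45 (permutation p = 0.0636) and a rho of 0.49 (permutation p = 0.0404). This r was 0.37 without Y28 and MA8, 0.51 as measured (permutation p = 0.0296), and 0.63 with the number of genes above 0 as a term (permutation p = 0.00511). With this term 3 of the 3 dentate pairs had an unadjusted p under 0.05, against 1 of 3 without it, and 6 of all 15 pairs, against 4. Their 3 lowest libraries had none in common. C1ql2 and Dsp, with an r of 0.09 (95% interval -0.44 to 0.58), were the dentate pair least alike.

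Fn1 followed none of the other 5 genes. Its r was 0.05 with Dsp, -0.0027 with Prox1, -0.02 with Iyd, -0.15 with C1ql2, and -0.18 with Fibcd1, and the 95% intervals reached from -0.63 to 0.55. In limma, 5 of 17983 genes, or 0.0278%, were called with Fn1, and no other member was among them.

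**Figure D3:**
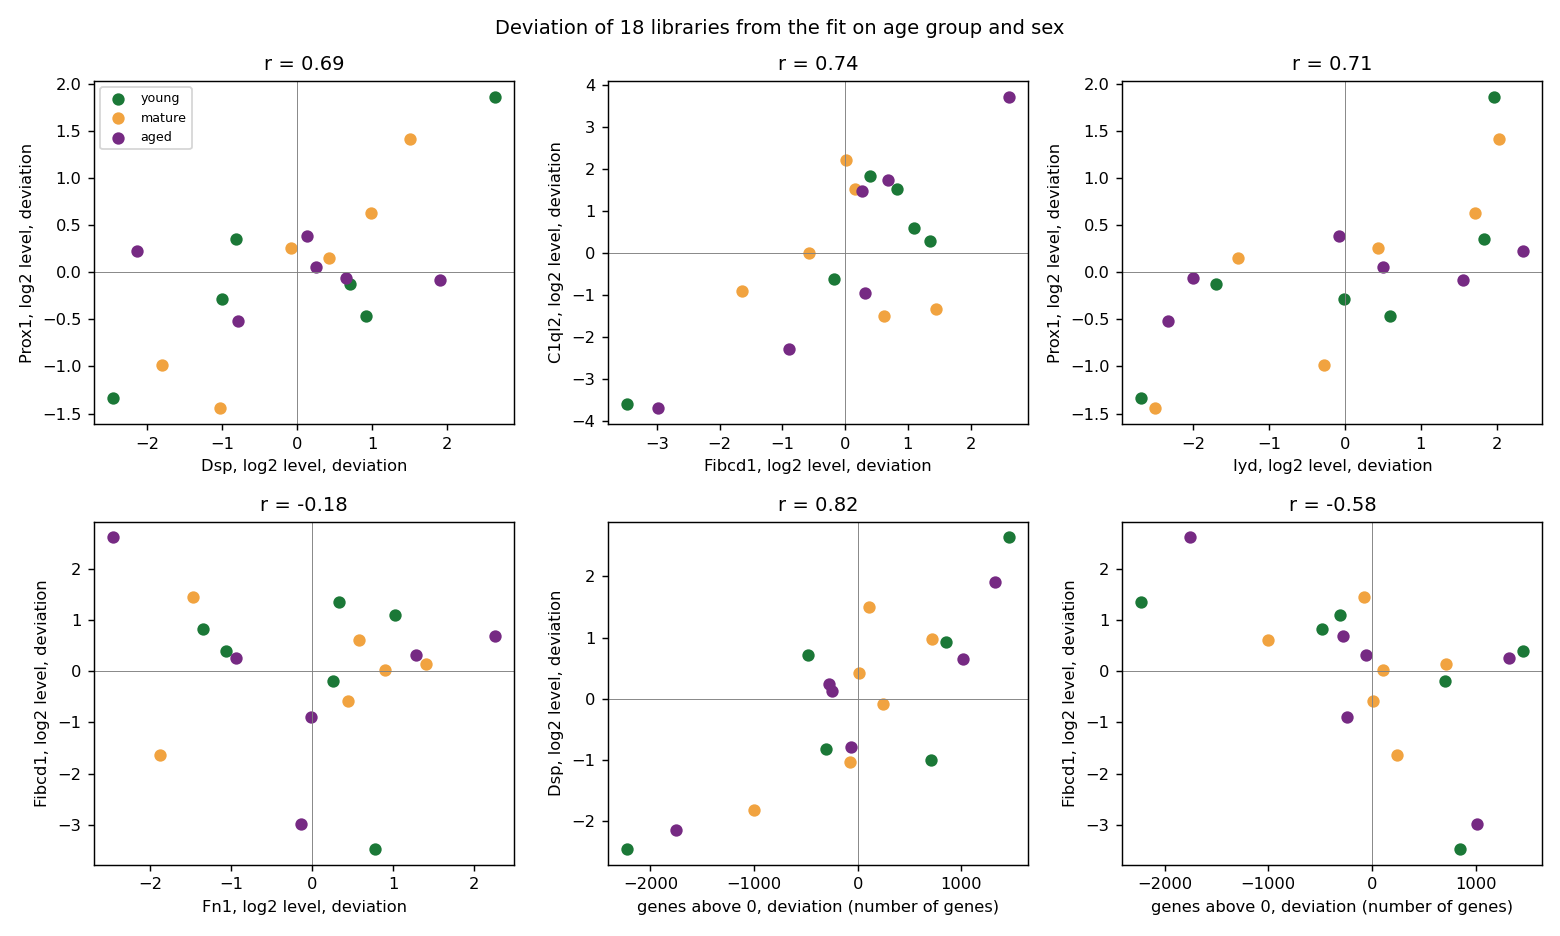
Each point is 1 of 18 libraries, plotted by its deviation from the fit on age group and sex, in log2 units for genes and in number of genes for the genes above 0. Prox1 rises with Dsp (r = 0.69) and Iyd (0.71), C1ql2 with Fibcd1 (0.74), Fibcd1 does not follow Fn1 (-0.18), and Dsp rises (0.82) while Fibcd1 falls (-0.58) with the number of genes above 0.

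Within single age groups, the pairs with an unadjusted exact permutation p under 0.05 for r were not the same. All 15 pairs were computed in each group, without adjustment for their number, and shares over all genes were not computed within groups. Each group has 6 libraries, and p-values are from exact permutation, two-sided. Unlike in the fits over 18 libraries, sex was not removed here. Any sex difference, which coincides with recording cohort in young and aged mice, is therefore part of these r. In mature mice the 3 dentate genes rose together, with an r of 0.95 for Prox1 and C1ql2 (exact p = 0.00556), 0.94 for Prox1 and Dsp (exact p = 0.0111), and 0.94 for C1ql2 and Dsp (exact p = 0.00833). Fibcd1 had an r of -0.44 with Prox1, -0.33 with Dsp, and -0.17 with C1ql2 in these mice. Iyd had an r of 0.81 with Prox1 (exact p = 0.0542), 0.73 with C1ql2 (exact p = 0.110), and 0.60 with Dsp (exact p = 0.203), and its rho with Prox1 was 0.94 (exact p = 0.0167). In aged mice the pair of C1ql2 and Fibcd1 had an r of 0.92 (exact p = 0.00556), and Prox1 and Dsp had an r of -0.39 (exact p = 0.450). In young mice Prox1 and Dsp had an r of 0.82 (exact p = 0.0375), Prox1 and Iyd 0.80 (exact p = 0.0472), and C1ql2 and Fibcd1 0.89 (exact p = 0.0569). Differences in r between the age groups were not tested.

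Recording cohort gave a further split, into 12 libraries of cohort C (female young and aged mice and all mature mice) and 6 of cohort D (male young and aged mice). The r of C1ql2 and Fibcd1 was 0.74 in cohort C (permutation p = 0.00566) and 0.70 in cohort D (permutation p = 0.122). That of Prox1 and Dsp was 0.52 and 0.88 (permutation p = 0.0831 and 0.0319), and that of Prox1 and Iyd was 0.66 and 0.85 (permutation p = 0.0163 and 0.0639). Dsp and Fibcd1 had an r of -0.76 in cohort C (permutation p = 0.00429) and -0.18 in cohort D (permutation p = 0.751). The sign turned for C1ql2 and Dsp, at -0.24 in cohort C and 0.51 in cohort D. It also turned for Dsp and Iyd, at -0.12 and 0.95.

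**Figure D4:**
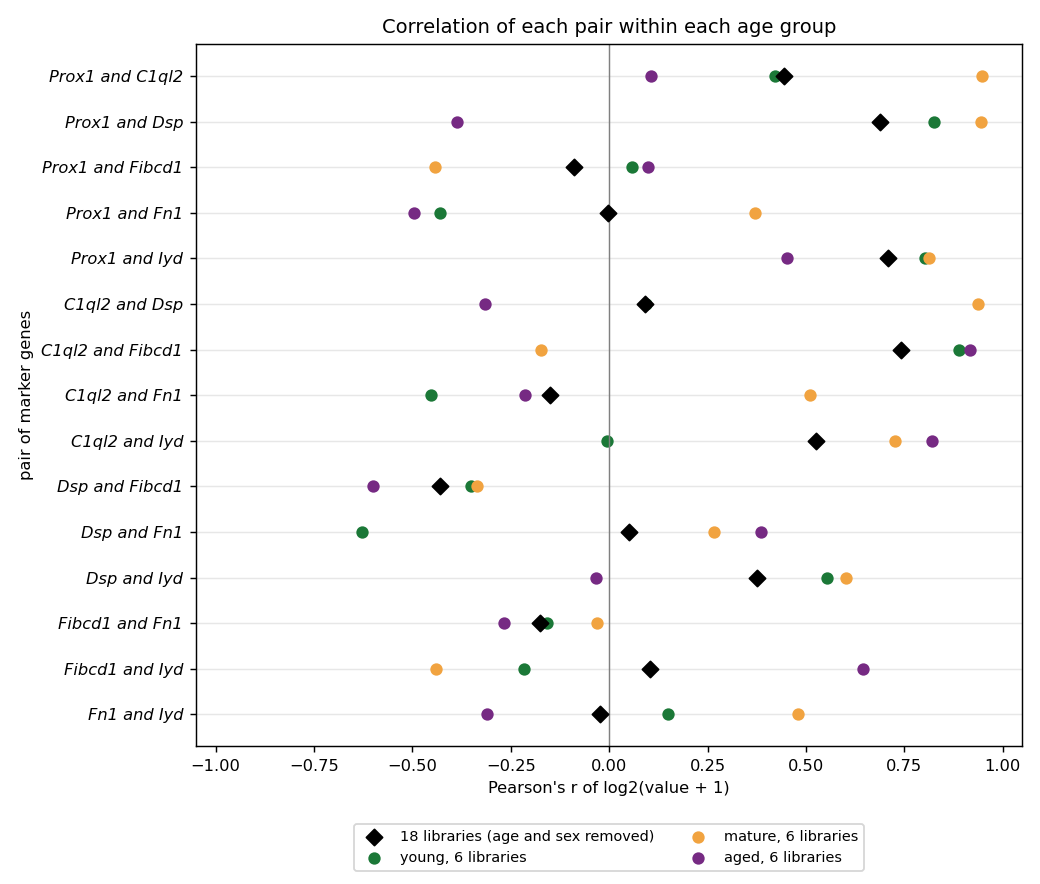
Pearson's r of log2(value + 1) for each of the 15 pairs, with a black diamond for all 18 libraries after removal of age group and sex. A colored point stands for the 6 libraries of each age group, without removal of sex. The 3 dentate pairs lie between 0.94 and 0.95 in mature mice, and C1ql2 with Fibcd1 lies at 0.89 in young, 0.92 in aged, and -0.17 in mature mice.

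Other genes of the same areas were taken from lists. These were chosen with earlier results of these data known, so they are not an independent check. Of the 10 other dentate granule genes, 8 had an r above 0 with Prox1, with a median of 0.54 against 0.01 over all genes tested. The highest were Tdo2, a tryptophan-degrading enzyme, at 0.87, and Lct, which encodes lactase, at 0.70. Plk5 (-0.15) and Gsg1l (-0.27) went the other way. In limma, 0 of 17983 genes were called with Prox1, and thus none of the 10. Of the 10, 6 had an unadjusted p under 0.05, as did 6.11% of all genes. The median r of this list was 0.44 with Iyd, 0.40 with Dsp, 0.22 with C1ql2, 0.16 with Fn1, and 0.08 with Fibcd1. With Dsp, 3 of the 10 were called in the same direction, namely Tdo2, Npnt, and Glis3, beside 11.2% of all genes in that direction. With the number of genes above 0 as a term, medians were 0.41 with Prox1, 0.41 with Iyd, 0.35 with C1ql2, and 0.34 with Dsp. They were 0.21 with Fibcd1 and 0.15 with Fn1, and none of the 10 was called with Dsp.

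Tdo2 was lowest and highest at 8.83 and 235.3 in young mice, 23.7 and 789.0 in mature mice, and 24.6 and 84.1 in aged mice. Like Prox1, it had its narrowest range in aged mice.

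Of the 8 other CA1 and subiculum genes, 6 had an r above 0 with Fibcd1 and 7 with Fn1, but with different leading genes. With Fibcd1, Nts, the neuropeptide neurotensin, reached 0.78 (adjusted p = 0.0501 in limma) and Spink8, a protease inhibitor, 0.65. With Fn1, Mpped1 reached 0.72 (adjusted p = 0.425 in limma) and Ly6g6e 0.51, while Nts had 0.11 and Spink8 0.04. The median r of the list was 0.21 with Fibcd1, 0.30 with Fn1, 0.10 with C1ql2, 0.06 with Iyd, -0.08 with Prox1, and -0.21 with Dsp. With the number of genes above 0 as a term, it was 0.14 with Fibcd1, 0.33 with Fn1, and 0.08 with C1ql2. With Iyd, Prox1, and Dsp it was then 0.11, 0.02, and -0.06. None of the 8 was called with any of the 6 genes. Over all genes, 0 were called with Prox1, C1ql2, or Iyd. Of 17983 genes, 5 were called with Fn1, 89 with Fibcd1, and 2041 with Dsp, in either direction.

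Among lists for other cells, Fibcd1 had its highest median r, 0.59, with the other inhibitory neuron genes. Of these 5, Sst (0.72), Gad2 (0.66), Lhx6 (0.59), and Gad1 (0.50) had an unadjusted p under 0.05 and Pvalb had an r of -0.20, with 0 of 5 called, while 4128 of all 17983 genes had such a p with Fibcd1. They summed to between 7470 and 26197 in young, 10400 and 18925 in mature, and 10643 and 26800 in aged mice. The CA2 and CA3 genes had a median r of 0.40 with Fibcd1, and the microglial genes -0.60. Cux2, a transcription factor of upper-layer cortical neurons, fell as Fibcd1 rose, with an r of -0.80 (slope -0.48, standard error 0.09, adjusted p = 0.0325 in limma). The call was lost with the number of genes above 0 as a term (adjusted p = 0.102 in limma), where r was -0.76. Of the 10 genes of cortical and entorhinal excitatory neurons, Cux2 was the only one called, 4 had an r above 0 with Fibcd1, up to 0.60 for Etv1, and the median was -0.22. The part of these cells in the values of Fibcd1 was not tested.

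With Dsp, the highest median was 0.52, over 4 tested vascular genes. Flt1 (r = 0.81) and Pecam1 (0.76), both of endothelial cells, were called in the same direction, as were 11.2% of all genes. Of this list of 5, Cldn5 was under the limit of 25, and the sum ranged from 208.1 to 1304 in young, 397.6 to 998.8 in mature, and 552.5 to 1823 in aged mice. With the number of genes above 0 as a term, the median was 0.37 and none of the 4 was called. The CGE interneuron genes had a median r of -0.09 with Prox1, with Adarb2 at 0.46 and Vip at -0.20.

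Markers of other cells were set beside Prox1 and C1ql2 in the same way. With Prox1, all 4 tested vascular genes had an r above 0, with a median of 0.29 and Flt1 at 0.62. The medians were 0.15 for the astrocyte genes, led by Gja1 (0.66) and Slc1a3 (0.56), and 0.03 for the microglial genes, led by P2ry12 (0.62), and all 5 genes of both lists had an r above 0. With the number of genes above 0 as a term, the microglial median was -0.15, with Csf1r at -0.28, C1qa at -0.23, and Tmem119 at -0.15. The vascular median with Prox1 was 0.26 with this term, and the astrocyte median 0.16. The astrocyte genes summed to between 5075 and 15732 in young, 2287 and 11919 in mature, and 2785 and 7898 in aged mice, and the microglial genes to between 1281 and 3471, 647.1 and 2463, and 531.6 and 1466. With C1ql2, the medians of the other inhibitory genes (0.45) and the CGE interneuron genes (0.38) were above that of the dentate granule list, with Gad2 at 0.51 and Adarb2 at 0.68. In each of these lists 4 of 5 genes had an r above 0, and Pvalb (-0.27) and Vip (-0.29) went the other way. With the number of genes above 0 as a term, their medians with C1ql2 were 0.412 (other inhibitory) and 0.353 (CGE interneuron). The dentate granule list then stood at 0.347. The CGE interneuron genes summed to between 6219 and 8425 in young, 5263 and 8236 in mature, and 6501 and 12129 in aged mice. In limma none of these genes was called with Prox1 or C1ql2, with each of which 0 of 17983 genes were called. The part of these cells in the values of both genes was not tested.

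**Figure D5:**
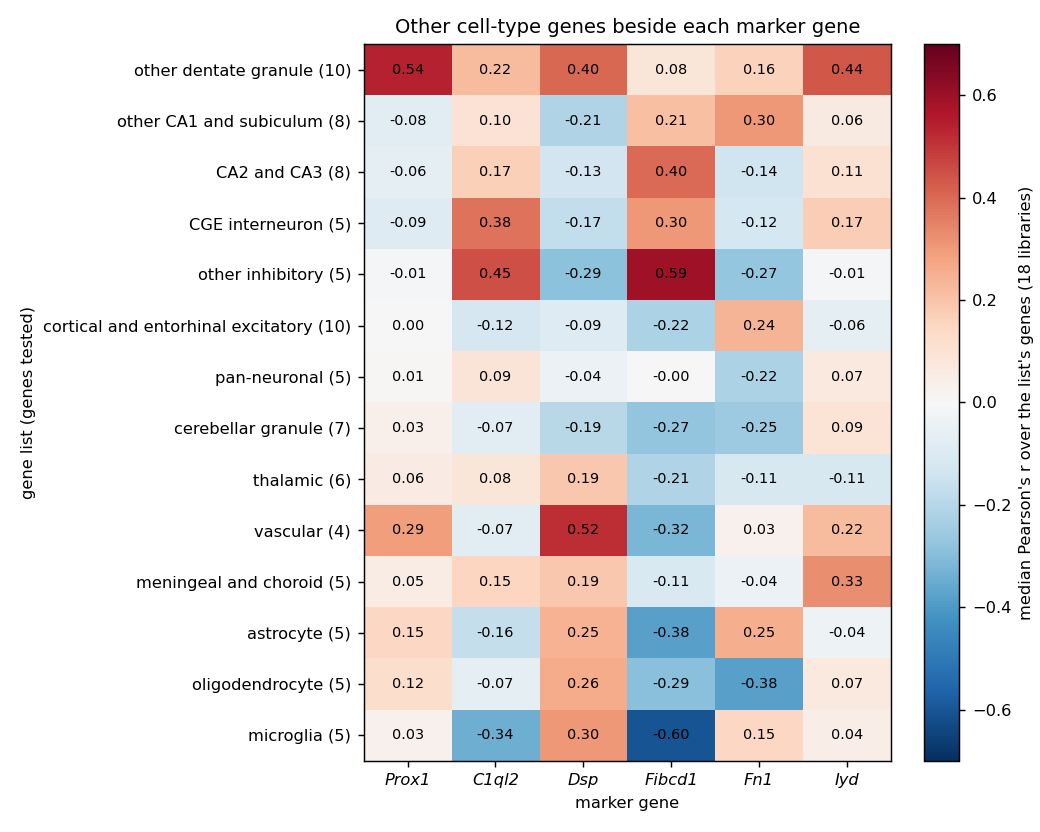
Median Pearson's r over the genes of each list (rows, with the number of genes tested) with each of the 6 marker genes (columns), over 18 libraries with age group and sex removed. The dentate granule list stands at 0.54 with Prox1, 0.44 with Iyd, and 0.40 with Dsp, and the other inhibitory list at 0.59 with Fibcd1.

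The genes most like each of the 6 over the 18 libraries, by r with age group and sex removed, differed from one to the next. They are the top 3 of 17956 genes searched (17957 for Iyd), so a high r is in part a product of the search. In limma, no gene was called with Prox1, C1ql2, or Iyd, where the smallest adjusted p was 0.107, 0.0572, and 0.999. For Prox1 they were Adck1 (0.87), a mitochondrial kinase-like protein, Tdo2 (0.87), and 2610034M16Rik (0.81). For C1ql2 they were Mcm6 (0.90), a subunit of the replicative helicase, the galanin receptor Galr1 (0.88), and the receptor Gpr37 (0.87). For Dsp they were Vmn1r1 (0.94), a vomeronasal receptor, and the noncoding RNAs Gm15958 (0.93) and Gm20663 (0.93). For Fibcd1 they were the serotonin receptor Htr4 (0.92), the cationic amino acid transporter Slc7a3 (0.91), and Abcb8 (0.91). For Fn1 they were the relaxin receptor Rxfp1 (0.90), Vwc2l (0.89), and Tmem44 (0.89), and for Iyd Aass (0.82), an enzyme of lysine breakdown, the keratin gene Krt2 (0.78), and Hddc2 (0.78). No gene was in more than 1 of these lists. With any 1 library left out, these r stayed between 0.69 and 0.96. With the number of genes above 0 as a term, the r with Dsp was 0.80 for Vmn1r1, 0.82 for Gm15958, and 0.77 for Gm20663.

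None of the 5 tested genes passed in limma between age groups or sexes, where a call needed an adjusted p under 0.05 with a log2 fold change of at least 0.5 in size. The share of all 17984 genes that passed was 0.0612% for aged minus young, 0.0778% for mature minus young, 0% for aged minus mature, and 0.534% for male minus female. Fn1 had a log2 fold change of -1.89 for aged minus young (standard error 0.71, unadjusted p = 0.0159, adjusted p = 0.855 in limma) and -1.92 for aged minus mature (adjusted p = 0.9995). C1ql2 had -1.98 for aged minus young (standard error 1.14, adjusted p = 0.898 in limma) and -2.49 for aged minus mature (unadjusted p = 0.0416). Prox1 had -1.02 for aged minus mature (unadjusted p = 0.0507, standard error 0.49 in limma) and 0.81 for mature minus young. Over the alternatives, C1ql2 went from -2.78 without A15 to -1.19 without A17 for aged minus young, and Prox1 from 0.43 with the number of genes above 0 as a term to 1.20 without Y28 for mature minus young. Fibcd1 had -0.37 and Dsp 0.96 for aged minus young, with standard errors of 0.84 and 0.79. Over the alternatives these went from -1.12 without Y22 to 0.26 without A17 for Fibcd1, so that its sign turned, and from 0.20 with the number of genes above 0 as a term to 1.52 without Y28 for Dsp. In every comparison the groups overlapped for each gene. Only Fn1 for aged minus young, and Fn1 and C1ql2 for aged minus mature, had an unadjusted p under 0.05, as did 964 and 382 of the 17984 genes in these comparisons.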

How the data were processed

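RNA of sorted MEC neuronal nuclei was measured in 18 libraries. Per the study's methods, the authors ran Kallisto on mm39 with introns, summed to genes, and used DESeq2, while the submitters' processing notes name mm10. The deposited signal is a scaled gene value, and its division by DESeq2 size factors was read from the values, not the methods. Of 27782 rows, 1 has no gene name (0.0246% to 0.169% of a library) and was left out. Groups came from the labels and sex from the source data. In limma 3.58.1 (R 4.3.3, trend), log2(value + 1) of genes with a mean of at least 25 was regressed on each member with age group and sex, or compared between groups, with Benjamini-Hochberg adjustment over all genes tested, checked on simulated data. Correlations used 100000 permutations (seed 1) of residuals, or all permutations for 6 libraries, in numpy 2.4.6. Within single age groups they used log2 levels without removal of sex. The members and gene lists were chosen with earlier results of these data known. Genes named are the members, list genes, the 3 genes most like each member (no date symbols), and, outside that rule, Prox1os, Apol7d, Xist, and Ddx3y. Alternatives were quantile normalization, other filters, pseudocounts, covariates, and weights, ranks, linear values, only the groups compared, single age groups, and each library left out. A result on a further list gene is not reported here.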

Additional observations from a re-analysis of the deposited data

Results flagged for a closer look

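Of 18 sets of 6 libraries (6 genes in 3 age groups), 5 held a library whose gap to its nearest neighbor took more than 0.625 of the range of the group. Chance passes this limit in about 1 of 20 groups of normally distributed values, a rate that need not hold for the skewed deposited values. On log2(value + 1), a scale added after the data were seen, none of these 5 passed, and 1 of the 18 sets did, Fibcd1 in young mice, through its lowest library Y22 (0.67 of the range). In young mice, Y28 stood apart for Prox1, at 636.9 against 260.8 in the next mouse, and for Dsp, at 650.2 against 203.7. In aged mice, A15 stood apart for C1ql2, at 726.7 against 230.7, and for Fibcd1, at 3455 against 833.2. A20 stood apart for Fn1, at 2097 against 571.8. Without Y28, the r of Prox1 and Dsp was 0.54, and without A15 that of C1ql2 and Dsp was 0.39, against 0.69 and 0.09 over all 18 libraries.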

How the results depend on the processing

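The number of ordered pairs of members called in limma, 1 of 25, was 2 when the mean had to reach 100, with 0.5 as pseudocount, the recording cohort as a term, or sample weights, and 0 by ranks and with the number of genes above 0 as a term, a term added after the data were seen. Leaving out each library gave 0 to 2. In each case with 2, the added pair was C1ql2 on Fibcd1, whose adjusted p ranged from 0.00460 to 0.274 over 28 alternatives, against 0.00427 to 0.978 for Prox1 on Dsp. After quantile normalization, and without Y28 or MA3, the single call was C1ql2 on Fibcd1. The number of pairs with a permutation p under 0.05, 4 of 15, was 2 within young and 1 within aged mice, where 6 libraries enter and sex is not removed. The r of Prox1 and Dsp was -0.39 within aged mice, that of C1ql2 and Fibcd1 -0.17 within mature mice, and that of C1ql2 and Iyd -0.0056 within young mice, and the cause was not tested. Counts of members called between ages or sexes were 0 under every alternative run. No paired analysis was possible because each mouse gave 1 library. Reads were not recovered, so no limit on low values of Iyd or C1ql2 can be given.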
